A study of Mus musculus with 61 samples.

Results

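The genes described here are 10 members of glucose uptake and glycolysis: *Slc2a1*, *Hk1*, *Hk2*, *Pfkl*, *Pfkm*, *Pfkp*, *Pgk1*, *Pkm*, *Ldha* and *Ldhb*. All 10 were found by symbol among the 18396 genes in the table. They were chosen by name and by measured values, since *Ldha* and *Pfkl* had been seen to be lower in KO than in WT mESCs, so their KO against WT values in mESCs are a description, and no p is given for them. RNA was sequenced in 61 libraries of 12 conditions: single germinal vesicle (GV) oocytes (7 KO and 7 WT), single zygotes (7 KO and 7 WT), single 2-cell embryos (8 KO and 7 WT), pools of 10 blastocysts (3 KO and 3 WT), blastocyst-derived mouse embryonic stem cells or mESCs (3 KO and 3 WT), and 3 libraries each of E14 cells overexpressing (OE) ZFP708 and of control E14 cells. KO samples carry a small frameshift deletion in *Zfp708*, which encodes a maternally supplied KRAB zinc-finger protein that recruits TRIM28. KO oocytes came from KO females, and KO embryos had KO mothers and WT fathers, so the embryos lacked the maternal product only. KO mESCs lacked the maternal and the zygotic product. E14 is a widely used male mESC line, derived from a blastocyst. The OE cells carried FLAG-tagged ZFP708 from a piggyBac vector and had been selected with puromycin and sorted for GFP. Control cells are labelled wild type, and whether they went through these steps is not given, so the steps cannot be told apart from ZFP708. The labels give LIF and FCS medium for the mESCs, while by the study's methods the lines were made in 2i medium over fibroblast feeders and later moved to gelatin without feeders. The number of mothers, litters or cultures behind each group is not given in the sources used here, so p-values measure the spread between these libraries only, which may be technical.

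Glycolysis converts glucose to pyruvate. SLC2A1 carries glucose across the plasma membrane, hexokinases (*Hk1*, *Hk2*) phosphorylate it, phosphofructokinases (*Pfkl*, *Pfkm* and *Pfkp*, named for liver, muscle and platelet) perform the committed step, PGK1 makes ATP from a bisphosphorylated intermediate, PKM makes pyruvate, and lactate dehydrogenase, a tetramer of LDHA and LDHB subunits, interconverts pyruvate and lactate. The mouse oocyte and the early cleavage embryo are known to depend on pyruvate and lactate, glucose use is known to increase towards the blastocyst, and mESCs in culture are known to be highly glycolytic. *Pgk1* lies on the X chromosome.

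The promoters of *Ldha*, *Ldhb*, *Pfkl* and *Slc2a1* are shown because the results below turn on these genes. The 250 bases upstream of the RefSeq start (GRCm38.p6, a later build than the mm9 coordinates used for counting) are given 5′ to 3′, with capitals marking ACGTG on either strand, the core of the hypoxia response element, which also lies within the MYC-type E-box CACGTG.
Slc2a1 promoter, chr4:119108495-119108744, plus strand: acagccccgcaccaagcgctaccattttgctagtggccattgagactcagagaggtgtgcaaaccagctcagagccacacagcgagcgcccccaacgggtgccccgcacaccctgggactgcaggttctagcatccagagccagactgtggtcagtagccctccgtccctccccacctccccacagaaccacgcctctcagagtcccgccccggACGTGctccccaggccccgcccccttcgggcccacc
Pfkl promoter, chr10:78009808-78010057, minus strand: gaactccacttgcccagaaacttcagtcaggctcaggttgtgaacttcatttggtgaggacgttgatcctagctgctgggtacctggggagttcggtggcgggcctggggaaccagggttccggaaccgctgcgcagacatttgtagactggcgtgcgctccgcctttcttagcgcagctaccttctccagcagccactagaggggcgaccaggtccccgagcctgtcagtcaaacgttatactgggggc
Ldha promoter, chr7:46845554-46845803, plus strand: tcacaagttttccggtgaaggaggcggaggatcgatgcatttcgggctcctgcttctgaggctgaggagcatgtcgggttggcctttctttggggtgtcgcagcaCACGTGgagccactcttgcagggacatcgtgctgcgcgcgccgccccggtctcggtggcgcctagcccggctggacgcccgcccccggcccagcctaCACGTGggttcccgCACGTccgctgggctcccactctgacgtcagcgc
Ldhb promoter, chr6:142507958-142508207, minus strand: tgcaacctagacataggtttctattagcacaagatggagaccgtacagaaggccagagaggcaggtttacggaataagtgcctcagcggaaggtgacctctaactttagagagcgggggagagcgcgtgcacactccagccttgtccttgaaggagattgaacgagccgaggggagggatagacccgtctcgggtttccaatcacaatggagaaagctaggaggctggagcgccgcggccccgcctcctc

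The upstream *Ldha* promoter held CACGTG 2 times, each also a match of ACGTG on both strands, and 1 further ACGTG. *Slc2a1* held 1 ACGTG, and *Pfkl* and *Ldhb* held no ACGTG. The form GCGTG was not searched for or marked, and the *Pfkl* and *Ldhb* sequences hold it. Of the 16 RefSeq promoters of the 10 members, 7 held ACGTG in this window, as did 16.6% of 32851 promoters, and 2 held CACGTG, as did 6.02% of all promoters. A match is a description of these letters and not a binding site. In the mm9 annotation used for counting, *Ldha* lies at chr7:54096845-54110997, *Ldhb* at chr6:142438769-142456477, *Pfkl* at chr10:77449692-77472828 and *Slc2a1* at chr4:118781316-118809935. Exons of *Slc2a1*, *Hk1* and *Pfkp* overlap a gene on the opposite strand (Gm12868, 2210417K05Rik and *Pitrm1*), which libraries made without strand information cannot separate. The annotation also holds 2 pseudogenes named after *Ldha* and 1 named after *Pgk1*, so a part of the reads of these genes may have been lost or shared.

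The deposited values are read counts divided by DESeq2 size factors and are called normalised counts here. The libraries of single oocytes, zygotes and 2-cell embryos held 2486334 to 4844699 reads in genes, so that 1 read was worth 0.208 to 0.397. The blastocyst and mESC libraries held 12469548 to 19596785, so that 1 read was worth 0.0441 to 0.0728. *Zfp708* had 530.2 to 722 in OE E14 cells, against 6.35 to 7.03 in control cells. The KO transcript is not degraded, so its level does not check the KO labels. The titles of KO 2-cell libraries 7 and 8 share a library number and replicate number 7, so they are numbered here by their column names. The library labelled KO 2-cell embryo 7 stood apart. Its sum over the 2-cell markers *Zscan4c*, *Zscan4d* and *Zfp352* was 0, against 21.8 to 654 in the other KO 2-cell libraries, and its sum over 10 cumulus and granulosa cell markers was 9356. KO 2-cell library 6 had a sum of values of 1257400, against 855617 to 910823 in the other 7 KO 2-cell libraries. Results that rest on these libraries are given with and without them. A gene was tested where the number of libraries at a value of 1 or more, over both groups, was at least the size of the smaller group. Where the lower group alone did not reach that, the filter was passed through the higher group, and the member's difference is given as a description with no p.

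*Ldhb*, the lactate dehydrogenase subunit known from heart, had the highest level per kilobase of the members in GV oocytes and zygotes, with either transcript length, and its mean was lower at each step to the blastocyst. This mean normalised count ± SD was 3356 ± 439 in WT GV oocytes, 978 ± 96.1 in WT zygotes, 244 ± 75.99 in WT 2-cell embryos and 0.871 ± 0.638 in WT blastocyst pools (n = 7, 7, 7 and 3), and 211 ± 27.8 in WT mESCs (n = 3). In WT libraries and control E14 cells the order was GV oocyte, zygote, 2-cell embryo, mESC, E14 and blastocyst, and only 2-cell embryos and mESCs were neighbours with overlapping ranges. Among the 12 conditions it was the only member whose highest mean was in oocytes. WT zygotes were lower than WT GV oocytes by limma (log2 difference -1.77, SE 0.10, adjusted p = 2.13e-12). WT 2-cell embryos were lower than WT zygotes (log2 difference -2.05, SE 0.17, adjusted p = 5.75e-10), and WT blastocyst pools, of which 1 of 3 reached a value of 1, had a log2 difference of -7.02 from WT 2-cell embryos, given with no p. In KO libraries the same 3 steps had log2 differences of -0.55, -2.98 and -7.49.

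*Ldha*, the subunit known from muscle, was lowest in zygotes and highest in cultured cells. The lowest, median and highest values were 1.17, 5.37 and 18.9 in WT GV oocytes, 0, 0.266 and 0.86 in WT zygotes, where 3 of 7 libraries were at 0, and 18.2, 36.7 and 67.6 in WT 2-cell embryos. In order of library, WT blastocyst pools had 18.6, 4.89 and 12.6, WT mESCs 738, 567 and 675, and control E14 cells 1131, 1145 and 1129. WT zygotes were thus below every 2-cell embryo, and the blastocyst range overlapped those of 2-cell embryos and GV oocytes. No WT zygote reached a value of 1, so both comparisons with zygotes are a description, with log2 differences of -2.27 for WT zygotes against WT GV oocytes and 4.93 for WT 2-cell embryos against WT zygotes. WT blastocyst pools were lower than WT 2-cell embryos (log2 difference -1.70, SE 0.40, adjusted p = 0.00178). The difference at the 2-cell stage is on the log2(value + 1) scale, which understates it for values this low, and with a pseudocount of 0.1 it was 7.13. In KO embryos the same 3 steps gave log2 differences of -1.37, 6.54 and -3.53. Without the library labelled KO 2-cell embryo 7, the last 2 were 6.06 and -3.06. With all KO 2-cell libraries, the last step lost its call by limma without KO blastocyst pool 2 or 3 (highest adjusted p = 0.0641).

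As shares of the summed lactate dehydrogenase level per kilobase of the longest coding transcript, *Ldhb* made up 99.8% ± 0.145 in WT GV oocytes (mean ± SD over libraries), 99.98% ± 0.0238 in WT zygotes, 89.2% ± 3.42 in WT 2-cell embryos, 8.95% ± 2.61 in WT blastocyst pools, 30.3% ± 4.08 in WT mESCs and 17.4% ± 0.201 in control E14 cells. *Ldha* thus had the larger share in blastocyst pools, mESCs and E14 cells. In KO 2-cell embryos the *Ldhb* share was 70.9% ± 17.6, among libraries with cumulus and granulosa markers that are described with the KO results. Over all annotated exons in place of the longest coding transcript, the *Ldhb* share was 12.1% in WT blastocyst pools and 92.1% in WT 2-cell embryos.

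**Figure D1:**
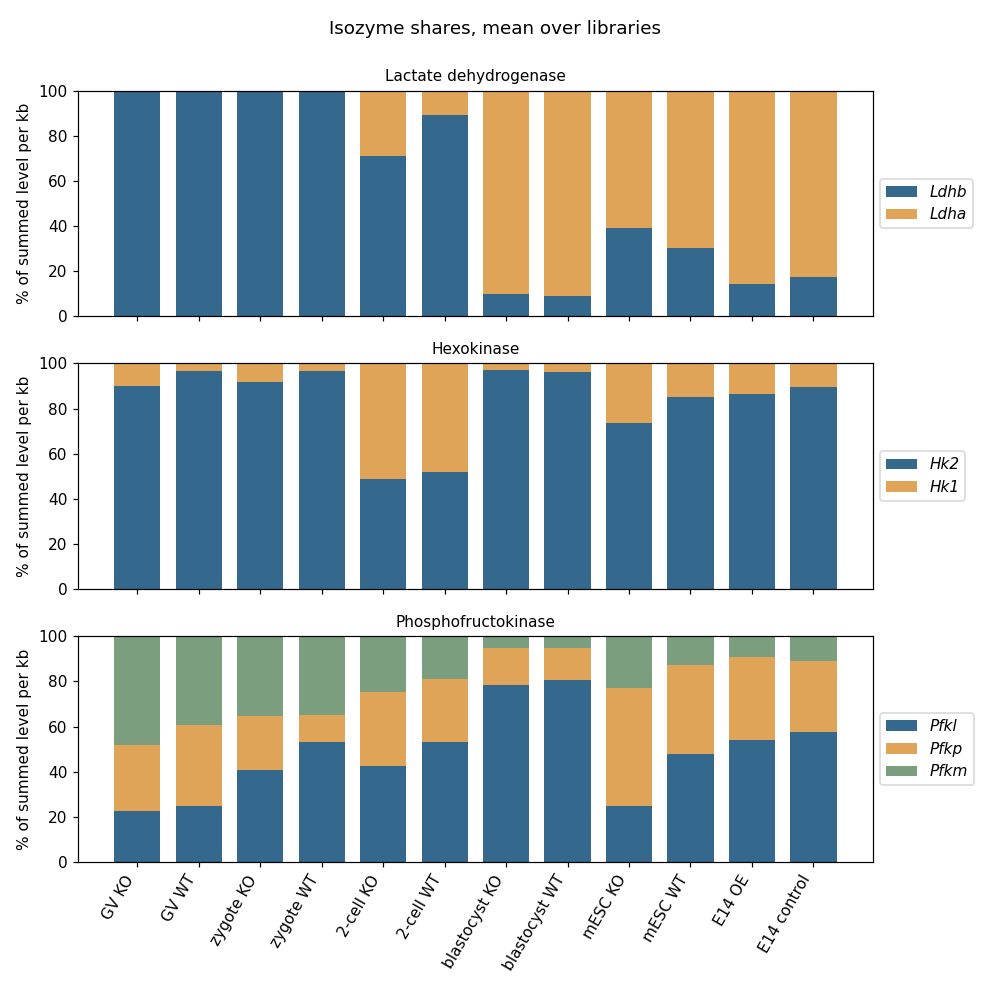
Stacked bars give the mean share of each isozyme (percent of the family's summed level per kilobase of the longest coding transcript, y axis) in the 12 conditions (x axis), for lactate dehydrogenase, hexokinase and phosphofructokinase. *Ldhb* fills nearly the whole bar in oocytes and zygotes and 8.95% of it in WT blastocyst pools.

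The glucose transporter *Slc2a1* was lowest in the 2-cell embryo. It had lowest, median and highest values of 36.6, 63.7 and 79.8 in WT GV oocytes, 32.4, 40.2 and 65.4 in WT zygotes and 8.31, 12.2 and 26.3 in WT 2-cell embryos. In order of library, it had 58.4, 77.8 and 54.4 in WT blastocyst pools and 557, 317 and 599 in WT mESCs. The 2-cell range lay below the ranges of zygotes and blastocyst pools. WT 2-cell embryos were lower than WT zygotes (log2 difference -1.59, SE 0.27, adjusted p = 1.81e-05), and WT blastocyst pools were higher than WT 2-cell embryos (log2 difference 2.07, SE 0.36, adjusted p = 0.000148). In KO samples both steps passed with the same directions (log2 differences -2.81 and 2.73).

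Both hexokinases were low in oocytes and zygotes. *Hk1*, the widely expressed form, ranged over 0 to 0.26 in WT GV oocytes and 0 to 0.873 in WT zygotes, which is at most a few reads, and over 0.641 to 15.7 in WT 2-cell embryos. KO 2-cell embryos had a log2 difference of 2.47 from KO zygotes, of which 2 of 7 reached a value of 1, so it is given with no p. *Hk2*, the form known to be induced by insulin and hypoxia, had 189.6, 139 and 146 in WT blastocyst pools, against lowest, median and highest values of 1.60, 8.95 and 22.6 in WT 2-cell embryos. Every blastocyst pool lay above every 2-cell embryo, and *Hk2* was higher in WT blastocyst pools (log2 difference 4.16, SE 0.50, adjusted p = 3.87e-06) and in KO blastocyst pools (log2 difference 4.19, SE 0.75, adjusted p = 0.000956). *Hk2* held 95.99% ± 2.77 of the hexokinase level per kilobase in WT blastocyst pools and 51.9% ± 19.7 in WT 2-cell embryos, and it had its highest mean in WT mESCs (464 ± 104, n = 3).

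Among the phosphofructokinases, *Pfkl* had 91.9, 81.3 and 82.1 in WT blastocyst pools, against lowest, median and highest values of 6.43, 11.5 and 30.02 in WT 2-cell embryos, with no overlap (log2 difference 2.52, SE 0.43, adjusted p = 0.000115). The KO step gave 1.33 (adjusted p = 0.29), and without the library labelled KO 2-cell embryo 7 it was 1.84 (adjusted p = 0.0343), which passed. *Pfkp* and *Pfkm* were lower in zygotes than in oocytes. WT zygotes had lowest, median and highest *Pfkp* values of 1.59, 2.99 and 5.53, against 13.4, 16.1 and 26.9 in WT GV oocytes (log2 difference -2.13, SE 0.24, adjusted p = 8.01e-08). For *Pfkm* WT zygotes had 5.58, 5.96 and 8.60, against 8.57, 14.3 and 18.6 in WT GV oocytes (log2 difference -0.96, SE 0.20, adjusted p = 0.000198). The *Pfkp* ranges did not overlap and the *Pfkm* ranges met only at 8.60 and 8.57. *Pfkl* took 80.7% ± 2.55 of the phosphofructokinase level per kilobase in WT blastocyst pools, against 24.7% ± 5.35 in WT GV oocytes.

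Both enzymes that make ATP had their highest means in OE E14 cells. *Pkm* had the highest level of the 10 members per kilobase in blastocyst pools and in mESC and E14 libraries, with either transcript length. Its values in WT samples were lowest in zygotes, at 36.7, 44.7 and 64.9 (lowest, median, highest), against 191, 313 and 351 in WT GV oocytes (log2 difference -2.63, SE 0.15, adjusted p = 1.16e-12), with no overlap. WT 2-cell embryos were higher than WT zygotes by less (log2 difference 0.64, SE 0.23, adjusted p = 0.0153), with overlapping ranges. WT blastocyst pools, at 345, 403 and 340.3, were higher than WT 2-cell embryos (log2 difference 2.32, SE 0.31, adjusted p = 1.00e-05). In KO samples that last step gave 1.20 (adjusted p = 0.124), and without the library labelled KO 2-cell embryo 7 it was 1.56 (adjusted p = 0.000907). *Pgk1* had 2.78, 5.32 and 8.31 in WT zygotes, against 6.24, 9.43 and 12.5 in WT GV oocytes (log2 difference -0.69, SE 0.23, adjusted p = 0.0132). Control E14 cells had 273, 265 and 265. The *Pgk1* ranges of all consecutive WT stages up to the blastocyst overlapped. WT 2-cell embryo 7 was at 0, and without it WT 2-cell embryos were higher than WT zygotes (adjusted p = 0.00017, against 0.17 with it). In KO zygotes against KO GV oocytes its call was lost when any of 10 of the 14 libraries was left out (highest adjusted p = 0.0985).

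**Figure D2:**
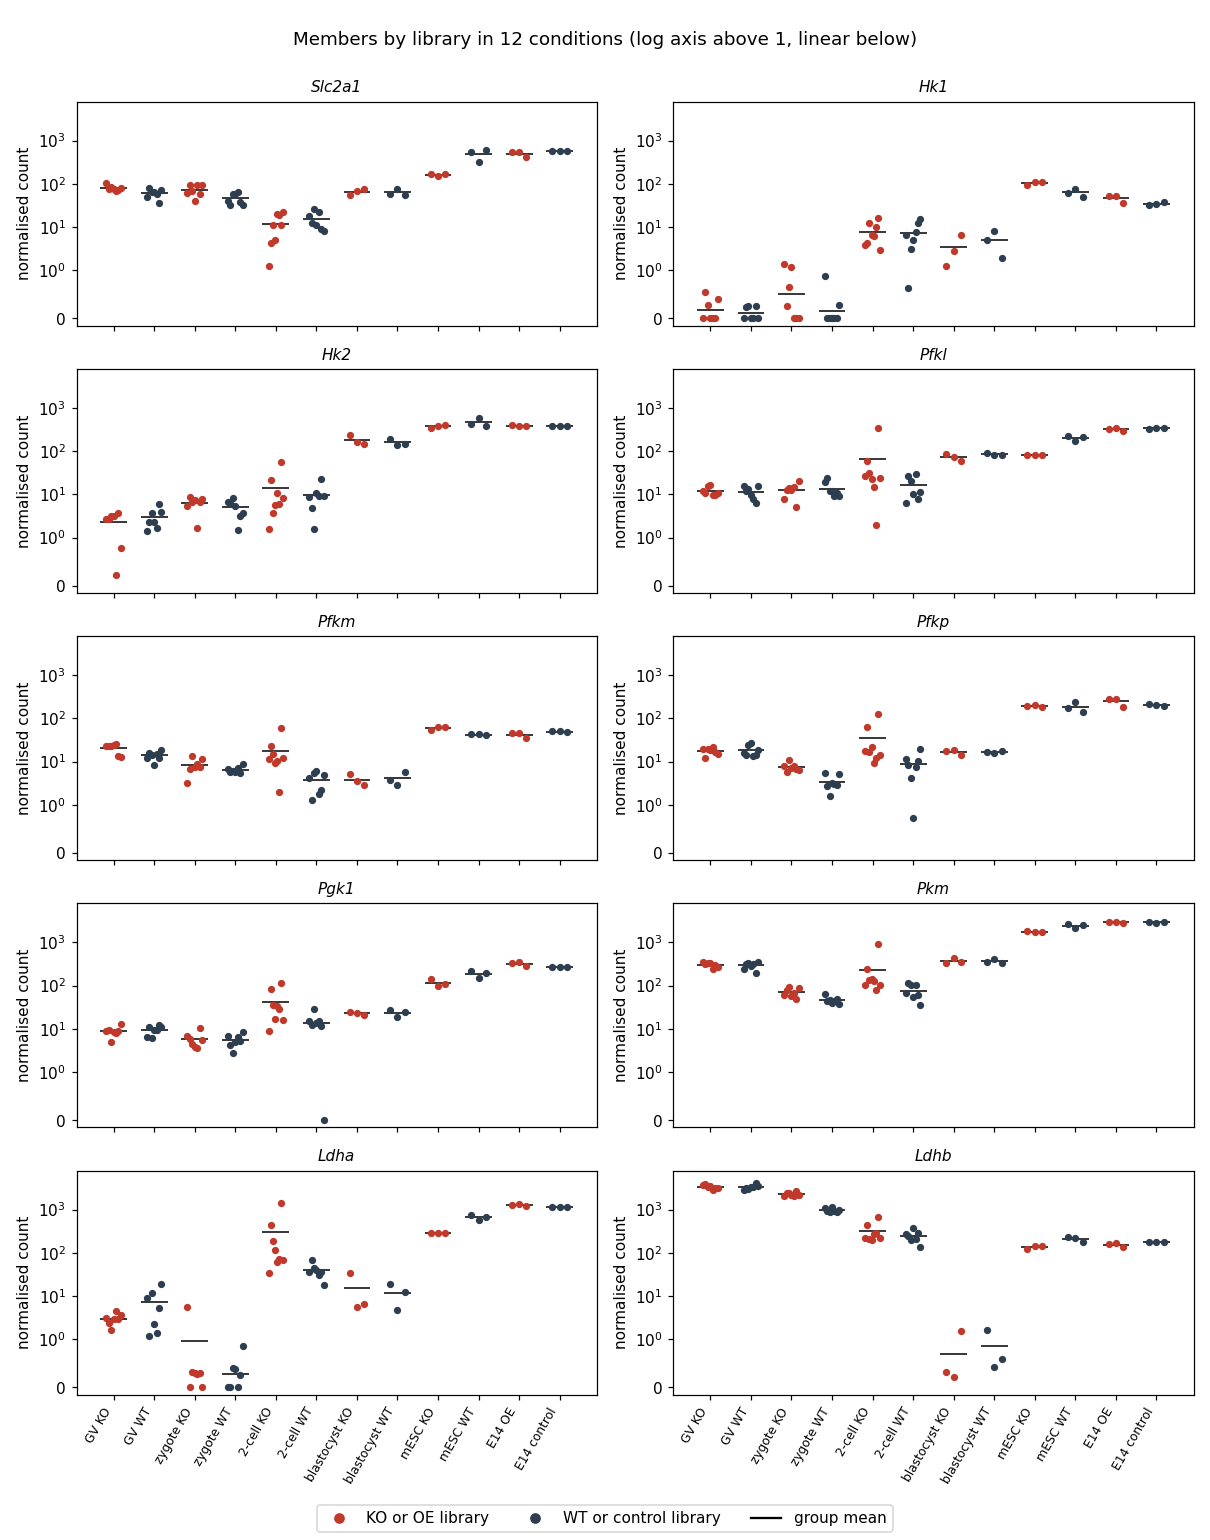
Each panel plots 1 member, with the normalised count of every library on the y axis (logarithmic above 1, linear below) and the 12 conditions on the x axis, KO or OE libraries in red and WT or control libraries in dark blue, with the group mean as a line. *Ldhb* falls from left to right to the blastocyst pools, and the highest KO 2-cell point in the panels of *Pfkl*, *Pkm* and *Ldha* is the library labelled embryo 7.

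Counted over the members by limma, WT zygotes against WT GV oocytes gave 0 higher and 6 lower of 9 tested, where 32.3% and 32.7% of all genes tested were higher and lower. KO zygotes against KO GV oocytes gave 1 higher (*Hk2*) and 6 lower of 9, where the shares of all genes were 31.9% and 32.5%. WT 2-cell embryos against WT zygotes gave 2 higher and 3 lower of 9 (all genes 36.3% and 38.8%), of which *Pfkm* lost its call without any one of WT 2-cell embryos 2, 5 and 6 or WT zygote 7. KO 2-cell embryos against KO zygotes gave 5 higher and 2 lower of 10 (all genes 33.1% and 33.1%). WT blastocyst pools against WT 2-cell embryos gave 4 higher and 2 lower of 10 (all genes 32.8% and 33%). KO blastocyst pools against KO 2-cell embryos gave 2 higher and 2 lower of 10 (all genes 18.1% and 19.3%). Without KO 2-cell library 6, *Pfkl* (adjusted p = 0.0122, against 0.121 with it) and *Pfkm* (0.0454, against 0.254) also passed as higher in KO 2-cell embryos than in KO zygotes, and *Pfkm* as lower in KO blastocyst pools than in KO 2-cell embryos (0.0233, against 0.101). These counts include members that passed the filter through 1 group only, a rule that favours a difference. They were *Ldha* in the 2 comparisons with zygotes, in KO and in WT, *Hk2* in KO zygotes against KO GV oocytes, *Hk1* in KO 2-cell embryos against KO zygotes, and *Ldhb* in blastocyst pools against 2-cell embryos, in KO and in WT. Values are relative to all RNA in a library, so a change in the total RNA of an oocyte or embryo is not seen. The mESC and E14 libraries came from another protocol than those of single oocytes and embryos. Rankings across them cannot tell cell type and protocol apart. The blastocyst libraries pooled embryos and were sequenced more deeply than the single 2-cell embryos, so stage and library type cannot be told apart at that step. In such pools fewer cells of a type and less RNA per cell cannot be told apart either.

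**Figure D3:**
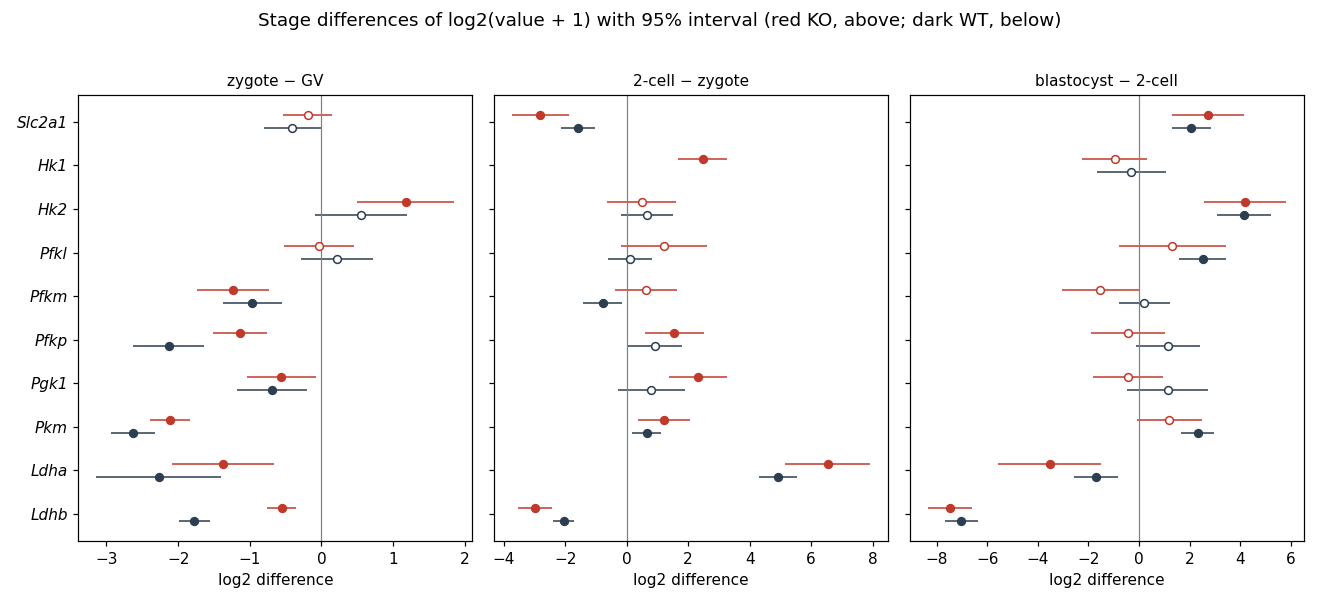
Points give the difference of log2(value + 1) between consecutive stages (x axis) for each member (y axis), with 95% intervals, in KO samples (red, above) and WT samples (dark blue, below); filled points had an adjusted p under 0.05, also where the filter was passed through 1 group only. The 2-cell minus zygote panel sets *Ldha*, at 6.54 in KO and 4.93 in WT samples, opposite *Ldhb*, at -2.98 and -2.05. Without the library labelled KO 2-cell embryo 7, *Ldha* had 6.06 in KO samples.

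The KO against WT comparison asked which members differed without maternal ZFP708. In zygotes 4 of 8 tested members were higher in KO and 0 were lower, where 8.19% of all genes tested were higher. *Ldhb* differed most clearly. KO zygotes had lowest, median and highest values of 2011, 2181 and 2687, against 879, 942 and 1145 in WT zygotes, so every KO zygote was above every WT zygote (log2 difference 1.22, SE 0.10, adjusted p = 1.92e-08). *Pfkp* also did not overlap, at 5.67, 7.04 and 10.7 in KO zygotes, against 1.59, 2.99 and 5.53 in WT zygotes (log2 difference 0.98, SE 0.26, adjusted p = 0.0117). The ranges of 4.32% of all genes tested did not overlap in this comparison.

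*Pkm* was higher in KO zygotes, at 48.99, 68.2 and 91.5, against 36.7, 44.7 and 64.9 in WT zygotes (log2 difference 0.59, SE 0.16, adjusted p = 0.0164), and *Slc2a1* likewise, at 39.9, 68.1 and 94.2, against 32.4, 40.2 and 65.4 (log2 difference 0.63, SE 0.20, adjusted p = 0.0361). The ranges of both genes overlapped between KO and WT zygotes. The *Slc2a1* call was lost without any one of KO zygotes 2, 3, 5 and 7 or WT zygotes 1, 2, 6 and 7 (adjusted p up to 0.0877). *Ldhb*, *Pfkp* and *Pkm* kept theirs in all 14 such fits. *Hk2*, *Pfkl*, *Pfkm* and *Pgk1* did not pass, with 95% intervals of the log2 difference of -0.36 to 0.97, -0.69 to 0.43, -0.28 to 0.79 and -0.51 to 0.60. *Hk1* and *Ldha* were too low to be tested. In a single fit of all 12 groups *Ldhb* alone kept its call (adjusted p = 1.65e-06). The summed cumulus and granulosa markers were 43.1 to 82.4 in KO zygotes and 52.6 to 68.8 in WT zygotes, so those ranges overlapped, and the summed oocyte markers were 12352 to 16372 in KO and 15847 to 19259.6 in WT zygotes. The part of the lower oocyte marker sums in these results was not tested.

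In GV oocytes, before fertilisation, 0 of 9 tested members passed by limma or by edgeR, where 3.64% and 3.72% of all genes tested did, and 2 had an unadjusted p under 0.05, as did 22.6% of all genes. DESeq2, which called 9.28% of all genes, called *Pfkm*, which had lowest, median and highest values of 12.7, 22.7 and 25.1 in KO GV oocytes, against 8.57, 14.3 and 18.6 in WT GV oocytes (log2 difference 0.53, SE 0.19, adjusted p = 0.107 by limma). *Ldhb* had 2759, 3282 and 3908 in KO GV oocytes, against 2901, 3313 and 4222 in WT GV oocytes, and the 95% interval of the log2 difference was -0.22 to 0.22. The difference of the KO effect between the 2 stages was itself tested as an interaction, where 6.8% of all genes passed. It passed for *Ldhb* (KO minus WT change 1.22, SE 0.14, adjusted p = 9.25e-08) and for *Pfkp* (1.00, SE 0.29, adjusted p = 0.0298). *Ldhb* had a zygote minus GV difference of -0.55 in KO samples, against -1.77 in WT samples. For *Pkm* the interaction was 0.52 (adjusted p = 0.124).

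**Figure D4:**
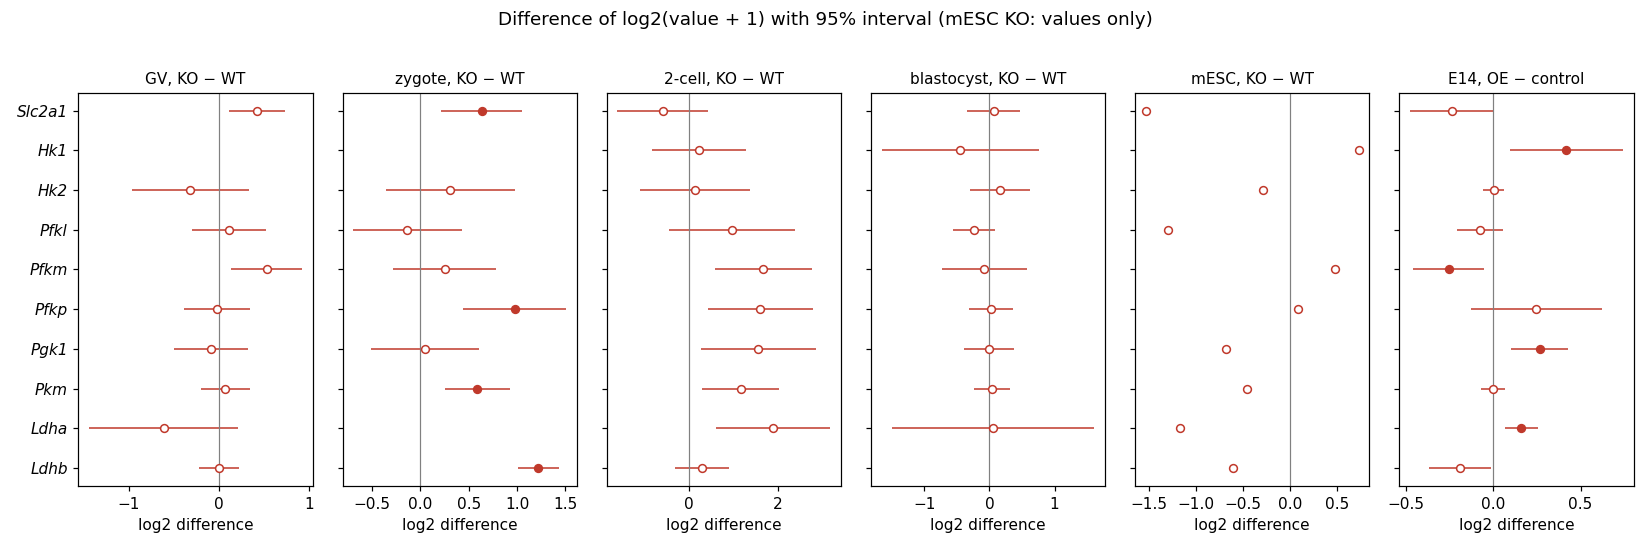
Points give the KO minus WT, or OE minus control, difference of log2(value + 1) (x axis, a scale of its own in each panel) for each member (y axis), with 95% intervals; filled points passed the adjusted p of 0.05, and the mESC KO panel shows values only. In the zygote panel *Ldhb* sits at 1.22 and in the GV oocyte panel its interval runs from -0.22 to 0.22.

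In 2-cell embryos 0 of 10 members passed by limma, where 0.708% of all genes tested did, and 5 had an unadjusted p under 0.05, namely *Pfkm*, *Pfkp*, *Pgk1*, *Pkm* and *Ldha*, with positive differences, as did 14.9% of all genes. edgeR called *Ldha* and 2.08% of all genes, and DESeq2 called *Pfkm*, *Pfkp* and *Ldha* and 8.58% of all genes. Of the members tested, *Hk1*, *Pfkp* and *Pgk1* passed the filter through KO 2-cell embryos only. The count of 5 includes *Pfkp* and *Pgk1*, so it is a description and nothing is read from it. *Ldha* had lowest, median and highest values of 35.02, 96.4 and 1412 in KO 2-cell embryos, against 18.2, 36.7 and 67.6 in WT 2-cell embryos (log2 difference 1.90, SE 0.61, adjusted p = 0.165). The ranges overlapped, and the library labelled KO 2-cell embryo 7 had 1412. *Pfkl* had 1.98, 25.1 and 350.4 in KO and 6.43, 11.5 and 30.02 in WT 2-cell embryos. *Pkm* had 79.6, 134 and 917 in KO and 36.1, 66.3 and 113 in WT 2-cell embryos.

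Markers of other cells moved with these values. The 10 markers of cumulus and granulosa cells, the somatic cells around the oocyte, summed to 31.5 to 9356 in KO 2-cell embryos, against 0 to 9.94 in WT 2-cell embryos. A mean of at least 1 was reached by 8 of 10 in KO, against 2 of 10 in WT, where *Fshr*, *Has2* and *Ptx3* were at 0 in every library. The 11 fibroblast markers summed to 20.6 to 1013 in KO and 2.89 to 7.08 in WT 2-cell embryos. Library by library, the KO embryos 1 to 8 had cumulus and granulosa sums of 244, 2394, 742, 543, 31.5, 181, 9356 and 72.6, and *Ldha* values of 35.02, 439, 184, 119, 59.8, 73.7, 1412 and 67.5. The sum of these 10 markers was 44.9 to 86.0 in WT GV oocytes and 52.6 to 68.8 in WT zygotes. KO 2-cell embryos 5 and 8, at 31.5 and 72.6, lay below the highest WT GV oocyte. The 4 KO 2-cell libraries with the highest sums (7, 2, 3 and 4) were also the 4 with the highest *Ldha*. Without libraries 6 and 7, the log2 difference of *Ldha* was 1.49 (adjusted p = 0.105) and *Pfkm* 1.69 (adjusted p = 0.0694). Without libraries 2 and 7 they were 1.07 and 1.19 (adjusted p = 0.21 and 0.395). The part of these cells in the KO values was not tested. Between zygotes and 2-cell embryos, and between 2-cell embryos and blastocyst pools, the KO effect differed for 0 members, where 1.44% and 0% of all genes passed by limma. At these steps 5 and 0 members had an unadjusted p under 0.05, as did 15.6% and 2.38% of all genes.

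**Figure D5:**
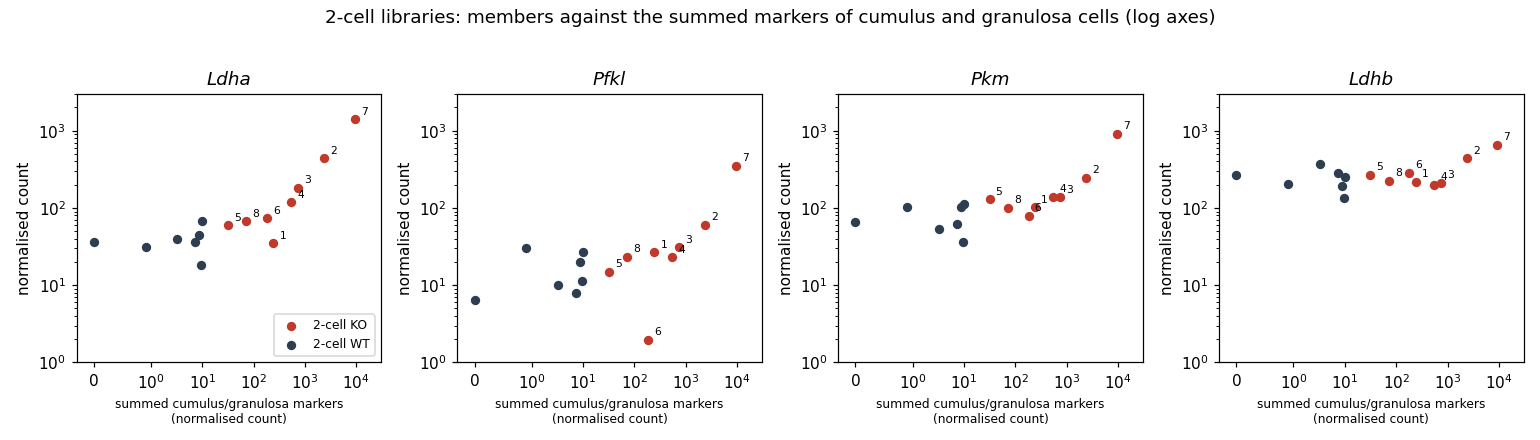
Each panel plots the normalised count of 1 member (y axis, log) against the summed normalised count of 10 cumulus and granulosa cell markers (x axis, log above 1) in KO (red, numbered) and WT (dark blue) 2-cell libraries. All 8 KO libraries lie to the right of the WT libraries, and library 7 is the highest in each of the 4 panels.

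In blastocyst pools 0 of 9 tested members passed by limma, edgeR or DESeq2, where 0.00885% of all genes tested did by limma, and 0 had an unadjusted p under 0.05, as did 1.53% of all genes. *Hk2* had 237, 159 and 144 in KO pools, against 189.6, 139 and 146 in WT pools (95% interval of the log2 difference -0.30 to 0.63). *Pkm* had 335, 428 and 359 in KO pools, against 345, 403 and 340.3 in WT pools (-0.24 to 0.32). Both genes overlapped. The intervals of *Slc2a1*, *Pfkl*, *Pfkp* and *Pgk1* were -0.34 to 0.46, -0.55 to 0.09, -0.31 to 0.36 and -0.38 to 0.38. That of *Ldha* was -1.49 to 1.61, with 33.8, 5.73 and 6.67 in KO pools and 18.6, 4.89 and 12.6 in WT pools. *Ldhb*, with 0.317, 0.216 and 1.54 in KO and 1.60, 0.423 and 0.589 in WT pools, was too low to be tested.

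In mESCs, whose KO against WT values chose the members, *Ldha* had 289.8, 293 and 292 in KO mESCs, against 738, 567 and 675 in WT mESCs (log2 difference -1.17). *Pfkl* had 82.5, 80.6 and 81.6 in KO mESCs, against 223, 170.1 and 215 in WT mESCs (-1.29). Both genes were lower in every KO library. *Slc2a1* had 169, 154 and 167 in KO mESCs, against 557, 317 and 599 in WT mESCs (-1.53). For *Pkm* the values were 1802, 1708 and 1729 in KO mESCs, against 2605, 2119 and 2524 in WT mESCs (-0.46). These 2 genes did not overlap either, nor did *Ldhb*, at 124, 142 and 146 in KO mESCs, against 232, 222 and 179 in WT mESCs (-0.61). *Hk1* and *Pfkm* lay the other way, with *Hk1* at 93.4, 110.3 and 109.9 in KO mESCs, against 63.00, 77.6 and 50.03 in WT mESCs (0.73). *Pfkm* had 53.6, 61.6 and 61.8 in KO mESCs, against 42.8, 43.2 and 40.6 in WT mESCs (0.47). *Pgk1*, at 145, 98.7 and 106 in KO mESCs, against 213, 153 and 194 in WT mESCs, did not overlap. *Hk2* and *Pfkp* overlapped between the groups.

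The limma call rule marked 5 of 10 members as lower and 2 as higher in KO mESCs, and 5.6% and 8.26% of all genes tested as lower and higher. The ranges of 39.3% of all genes did not overlap. Nothing is read from these counts, since the rule used the contrast. *Pfkl* took 24.7% ± 0.957 of the phosphofructokinase level per kilobase in KO mESCs and 47.98% ± 8.64 in WT mESCs. *Hk2* took 73.6% ± 0.83 of the hexokinase level in KO and 84.98% ± 0.933 in WT mESCs. The libraries were not equally distinct. KO 2 and 3 had a mean chi-square of 1.72 per gene between them, where counting noise alone gives about 1, against 10.97 and 12.7 with KO 1. WT 1 and 3 had 3.28, against 34.8 and 34.96 with WT 2. The libraries also differed in Y-linked reads. *Ddx3y* was at 0, 44.9 and 51.4 in KO 1, 2 and 3, against 63.8, 43.1 and 0.11 in WT 1, 2 and 3. Among libraries with Y-linked reads, KO 2 and 3 against WT 1 and 2, the log2 differences of *Ldha*, *Pfkl* and *Slc2a1* were -1.14, -1.25 and -1.39. Those of *Pgk1*, *Ldhb*, *Pkm*, *Hk2* and *Pfkp* were -0.82, -0.65, -0.45, -0.34 and -0.11, and those of *Hk1* and *Pfkm* were 0.65 and 0.51. In this fit 0 of all genes passed by limma. These values are part of the contrast that chose the members, so they are a description and check nothing. The summed fibroblast markers were 13.4 to 15.7 in KO and 6.58 to 9.17 in WT mESCs, and *Lum*, *S100a4* and *Dcn* were at 0 in every library of both.

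In E14 cells overexpressing ZFP708, 3 of 10 members were higher and 1 was lower, where 21.9% and 28.1% of all genes tested were higher and lower by limma. The ranges of 59.1% of all genes did not overlap. *Pgk1* had 336, 353 and 282 in OE cells, against 273, 265 and 265 in control cells (log2 difference 0.27, SE 0.07, adjusted p = 0.013). *Ldha* had 1298, 1338 and 1178 in OE cells, against 1131, 1145 and 1129 in control cells (log2 difference 0.16, SE 0.04, adjusted p = 0.00987). Both were higher in every OE library. *Hk1* was higher, at 53.2, 53.9 and 36.7 in OE cells, against 32.4, 34.9 and 38.1 in control cells (log2 difference 0.42, SE 0.14, adjusted p = 0.0373), although the ranges overlapped. *Pfkm* was lower, at 44.9, 45.2 and 34.9 in OE cells, against 50.3, 50.3 and 48.2 in control cells (log2 difference -0.26, SE 0.09, adjusted p = 0.0389). *Hk2* and *Pkm* had 95% intervals of -0.06 to 0.06 and -0.07 to 0.07, and *Pfkl*, *Slc2a1*, *Pfkp* and *Ldhb* did not pass.

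Control libraries differed by no more than a mean chi-square of 1.13 per gene between them, and OE libraries 1 and 2 by 1.26, while OE library 3 gave 7.31 and 7.53 with these. With near-identical libraries averaged, 0 members passed by limma, and without OE library 3, 8 did. With libraries averaged few of all genes passed either, as given in the last paragraph. The share of all genes without OE library 3 is not given here, so nothing is read from these counts about the members. The *Hk1* call was lost without control 1 or 2 or OE library 1 or 2 (adjusted p up to 0.108), and the *Pfkm* call without any 1 of the controls (adjusted p up to 0.109). The summed fibroblast markers were 17.95 to 22.7 in OE cells and 101 to 109 in control cells, and their part in these values was not tested. Set beside the KO against WT values of mESCs, which chose the members, the OE differences are a description, and nothing is read from the pairing. *Ldha* and *Pgk1* had negative differences in KO mESCs and positive ones in OE cells, and *Pfkm* the reverse. *Slc2a1*, *Pfkl* and *Ldhb* had negative differences in both, and *Hk1* and *Pfkp* positive ones in both. The 95% interval of *Pfkl* in OE cells was -0.21 to 0.06, and those of *Hk2* and *Pkm* are given above.

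The rest of the pathway was followed in 3 lists: other enzymes of glycolysis (19 of 20 listed genes in the table), transporters of glucose, lactate and pyruvate (17 of 17), and switches of glycolytic flux (22 of 22). In KO zygotes 2 of 8, 1 of 8 and 1 of 18 tested genes were higher, where 8.19% of all genes were, and 0 were lower. *Tpi1*, triose phosphate isomerase, averaged 42.9 ± 13.98 in KO zygotes, against 21.8 ± 7.36 in WT zygotes (log2 difference 0.96, adjusted p = 0.00579). *Ldhc*, the lactate dehydrogenase of testis, averaged 3.79 ± 2.82 in KO zygotes, against 0.723 ± 0.788 in WT zygotes (log2 difference 1.36), and passed the filter over both groups together only, so no p is given. *Bsg*, which carries lactate transporters to the membrane, averaged 57.2 ± 8.51 in KO zygotes, against 41.2 ± 7.04 in WT zygotes (log2 difference 0.47, adjusted p = 0.0367). *Fbp1*, a fructose bisphosphatase of gluconeogenesis, averaged 59.6 ± 11.9 in KO zygotes, against 38.8 ± 6.02 in WT zygotes (log2 difference 0.60, adjusted p = 0.0135). All 4 overlapped between KO and WT zygotes. The list medians were 0.15, 0.28 and 0.18, beside 0.03 over all genes tested. In GV oocytes, 2-cell embryos and blastocyst pools 0 genes of the 3 lists passed by limma, and 2 of the other enzymes, 0 transporters and 2 switches in GV oocytes, 5, 1 and 2 in 2-cell embryos and 0, 0 and 0 in blastocyst pools had an unadjusted p under 0.05, beside the shares of all genes given above. The genes tested in the 3 lists were 9, 11 and 18 in GV oocytes, 13, 10 and 21 in 2-cell embryos and 11, 9 and 20 in blastocyst pools. edgeR and DESeq2 also called 0 in GV oocytes and blastocyst pools. In 2-cell embryos edgeR called 3 of the other enzymes (*Aldoa*, *Tpi1* and *Eno1*), and DESeq2 called 4 of them (with *Pgam1*) and 2 switches (*Pfkfb2* and *Hif1a*), beside the marker values given above.

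Along the WT stages the lists moved in both directions. Zygotes against GV oocytes had 2, 2 and 5 genes higher and 6, 5 and 6 lower of 9, 8 and 18 tested in the 3 lists, by limma (all genes 32.3% and 32.7%). *Tpi1* (log2 difference -2.57, adjusted p = 4.38e-10) and the phosphoglucose isomerase *Gpi1* (log2 difference -1.96, adjusted p = 1.72e-07) were lower. *Hif1a*, which encodes the oxygen-regulated subunit of HIF1, was higher (log2 difference 1.08, adjusted p = 3.32e-08). 2-cell embryos against zygotes had 3, 6 and 8 higher and 2, 2 and 9 lower of 8, 10 and 18 tested (all genes 36.3% and 38.8%). *Tigar*, which lowers the activator of phosphofructokinase (log2 difference 2.94, adjusted p = 2.64e-12), was higher. *Bpgm*, bisphosphoglycerate mutase (log2 difference -4.04, adjusted p = 2.67e-14), and *Hif1a* (log2 difference -3.84, adjusted p = 9.22e-14) were lower. Blastocyst pools against 2-cell embryos had 7, 4 and 9 higher and 2, 3 and 5 lower of 13, 13 and 21 tested (all genes 32.8% and 33%). *Bsg* (log2 difference 4.09, adjusted p = 4.35e-11), the muscle-type bisphosphatase *Fbp2* (log2 difference 8.07, adjusted p = 3.84e-09) and *Pdha1*, a subunit of pyruvate dehydrogenase (log2 difference 2.39, adjusted p = 8.06e-08), were higher. *Pdk1*, a kinase that inhibits pyruvate dehydrogenase (log2 difference -3.92, adjusted p = 5.02e-08), was lower. *Ldhc* had log2 differences of 4.59 and -5.05 at the last 2 steps, as a description, since it passed the filter through 2-cell embryos only. The list counts at these steps likewise include genes that passed through 1 group only.

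In KO mESCs the lists are a description, and nothing is read from them. The call rule marked 0 of 12, 2 of 8 and 2 of 21 genes as higher and 4, 3 and 1 as lower, and the 5 named here are those of smallest p among these, so they are a selection. *Slc16a3*, the lactate exporter MCT4, averaged 12.4 ± 2.22 in KO mESCs, against 71.6 ± 14.7 in WT mESCs (log2 difference -2.43). *Pdk1* averaged 30.2 ± 9.08 in KO mESCs, against 101 ± 12.7 in WT mESCs (log2 difference -1.74), and *Tpi1* averaged 160.4 ± 10.2 in KO mESCs, against 295 ± 6.49 in WT mESCs (log2 difference -0.88). The glucose transporter *Slc2a3* averaged 1199.7 ± 23.2 in KO mESCs, against 1739.6 ± 172 in WT mESCs (log2 difference -0.53), and the mitochondrial pyruvate carrier *Mpc1* averaged 15.5 ± 0.64 in KO mESCs, against 4.97 ± 0.93 in WT mESCs (log2 difference 1.48). The first 4 were lower and *Mpc1* higher in every KO library. In OE E14 cells 0, 2 and 9 genes of the 3 lists were higher and 3, 4 and 6 lower of 12, 10 and 20 tested by limma (all genes 21.9% and 28.1%). *Pfkfb3*, which makes the activator of phosphofructokinase (log2 difference -1.15, adjusted p = 2.29e-05), *Slc16a3* (log2 difference -0.43, adjusted p = 0.000127) and *Gpi1* (log2 difference -0.19, adjusted p = 0.00072) were lower. *Myc* (log2 difference 0.93, adjusted p = 2.55e-06) and *Pdhx*, a component of pyruvate dehydrogenase (log2 difference 0.42, adjusted p = 7.06e-05), were higher. The near-identical E14 libraries described above also stand behind these p-values, which measure the spread between such libraries only.

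Over the means of the 12 conditions on the log2(value + 1) scale, the genes most like *Ldha* among 9539 with a mean of at least 10 were *Nampt*, which encodes the rate-limiting enzyme of NAD salvage (Pearson r = 0.989), *Ninl* (r = 0.979) and *Zfp146* (r = 0.978). *Nampt* had means of 177 in KO mESCs and 241 in WT mESCs, and 16.3 in WT zygotes. Those most like *Ldhb* were the kinase gene *Pak1* (r = 0.987), *Stat4* (r = 0.982) and *Rfx5* (r = 0.981). *Stat4* had means of 101 in KO zygotes and 66.1 in WT zygotes. The 12 points share their scaling and, in groups, the library protocol, and the likeness is a description of these means.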

How the data were processed

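The deposited signal values are, per the labels and the study's methods, counts that the authors made from 75-base single-end reads (STAR 2.4.2a, mm9, htseq-count with reversed strand, Ensembl gene models) and divided by DESeq2 size factors. Oocyte and embryo libraries up to the 2-cell stage came from a full-length protocol that does not mark strand, mESC libraries from a strand-marking poly(A) kit, and the kit for blastocysts is not given in the sources used here. Dividing by the value of 1 read gave whole reads for 100% of values above 0 (tolerance 0.01). Of 18504 rows, 108 repeats of an Ensembl gene identifier were left out, 26 symbols had been turned into dates, and 0 value columns were unused.

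Differences were tested on log2(value + 1) with limma 3.58.1 in R 4.3.3 (trended, robust), on genes that reached a value of 1 in a number of libraries equal to the size of the smaller group, with Benjamini-Hochberg adjustment over all genes tested and a threshold of 0.05. On the recovered reads edgeR 4.0.16 called 438, 1576, 262, 1, 1611 and 6199 genes for KO or OE in GV oocytes, zygotes, 2-cell embryos, blastocysts, mESCs and E14 cells, and DESeq2 1.42.0 was a further alternative. All 10 members are named. From the 3 pathway lists genes were named from up to 4 higher and 4 lower with the smallest p, and the 3 genes with the highest correlation with *Ldha* and *Ldhb* were named; list genes called by the count tests in 2-cell embryos were named after their values were seen. Members and lists were chosen with earlier results of these data known. Levels per kilobase used the longest coding transcript or all exons of the mm9 annotation, and promoters came from RefSeq.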

Additional observations from a re-analysis of the deposited data

Results flagged for a closer look

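Values were searched for single libraries far from the rest of their group, by the gap to the nearest library divided by the range of the group (Dixon's criterion). Of 60 groups, 9 held such a library, where chance gives about 1 in 20, or 3. Of these, 6 were the library labelled KO 2-cell embryo 7. It had normalised counts of 57.4 for *Hk2* (other KO 2-cell embryos 1.61 to 21.0), 350.4 for *Pfkl* (1.98 to 60.2), 58.6 for *Pfkm* (1.98 to 22.9), 126.2 for *Pfkp* (9.44 to 62.7), 917 for *Pkm* (79.6 to 246) and 1412 for *Ldha* (35.0 to 439). The same library had 0 reads of the 2-cell markers and the highest sum of cumulus and granulosa markers, and the part of this in its values was not tested. In zygotes, KO zygote 1 had 5.53 for *Ldha* (other KO zygotes 0 to 0.325), WT zygote 1 had 64.9 for *Pkm* (other WT zygotes 36.7 to 48.4), and WT zygote 1 had 0.873 for *Hk1* (0 to 0.287), which is a few reads.

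The KO effect differed between GV oocytes and zygotes for *Ldhb* (1.22 on the log2 scale) and *Pfkp* (1.00), by the limma interaction given in the report.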

How the results depend on the processing

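The 52 called values of the members were refitted 1172 times under the alternatives. In 100 of these refits the call was lost, and 0 had the opposite sign. The counts of members called moved as follows, and the cause was not tested. Counts over all genes moved as well, as given below for KO or OE comparisons, so nothing is read from these counts about the members. Those in mESCs are a description, since that contrast chose the members. With DESeq2 the count was 1 in GV oocytes (0 by limma) and 3 in 2-cell embryos (0 by limma), where it called 9.28% and 8.58% of all genes. It was 8 for WT 2-cell embryos against zygotes (5 by limma) and 7 for KO blastocysts against 2-cell embryos (4 by limma), where DESeq2 called 66.5% and 48.7% of all genes. In the last 2 DESeq2 moved the median of all genes to 0.40 and -0.62, against -0.10 and -0.17 by limma. With edgeR 1 member was called in 2-cell embryos, where 2.08% of all genes were. One fit of all 12 groups called 1 in zygotes (against 4), 5 in 2-cell embryos, 0 in mESCs (against 7), 0 in E14 cells (against 4) and 8 for KO blastocysts against 2-cell embryos. Near-identical libraries averaged gave 2 in mESCs and 0 in E14 cells. In E14 cells scaling to the total count gave 2 and limma with no trend or robust option gave 1. A filter at 10 gave 3 for WT zygotes against GV oocytes (6 otherwise) and 4 in KO (7 otherwise), since fewer members were tested. Chosen after seeing the data, leaving out KO 2-cell libraries 6 and 7 gave 7 for KO blastocysts against 2-cell embryos (54.7% of all genes). The mESC libraries with Y-linked reads only gave 0 (0% of all genes), with 2 against 2 libraries. Without each library in turn, the counts were 0 to 0 in GV oocytes, 3 to 4 in zygotes, 0 to 0 in 2-cell embryos and blastocysts, 2 to 8 in mESCs and 2 to 8 in E14 cells. At the stage steps they were 6 to 8, 4 to 7 and 6 to 7 in WT and 6 to 7, 7 to 9 and 3 to 6 in KO. With the replicate block the counts were 0, 3, 0, 0, 7 and 6 for KO or OE (GV oocytes to E14 cells), 6, 6 and 7 for the WT steps and 7, 8 and 6 for the KO steps, but same-numbered libraries did not deviate together in every pair of any comparison, so the numbers do not pair them.

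Over all genes, GV oocytes gave 429 by limma, 985 by DESeq2 and 209 with the replicate block, zygotes 1628 and 963 in the fit of all groups, 2-cell embryos 89, and 262, 1212 and 3626 by edgeR, DESeq2 and the fit of all groups. In mESCs 1658 genes became 804 with the replicate block, 108 in the fit of all groups and 147 with libraries averaged, and in E14 cells 6121 became 210 in the fit of all groups and 37 with libraries averaged.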
